A study of Mus musculus with 8 samples.

Results

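HOX genes were followed in 4 primary cell lines of murine pancreatic ductal adenocarcinoma (PDAC), numbered #1, #3, #5 and #10, each sequenced once after DMSO, the solvent control, and once after 48 h with trametinib, an inhibitor of the kinase MEK. Members were all genes of the deposited table with a symbol made of Hox, a cluster letter from a to d and a number. This rule gave 37 of 34478 genes, of which 11 belonged to the HoxA cluster, 10 to HoxB, 9 to HoxC and 7 to HoxD. Values of Hoxd1 and Hoxd12 were not analysed here, and only their start regions were counted. All lines, treated and control, were labelled with the same genotype, which includes Ptf1awt/Cre and Trp53loxP/loxP. In this model Cre is driven from Ptf1a, a gene of pancreatic progenitors and acinar cells, and deletes Trp53 in that lineage. Trametinib was given at the IC50 of each line, so that the dose differed between lines, and the age of the mice is not given in the sources used here. With 1 library per line and treatment, p-values measure only the spread between these libraries, and nothing in the labels says whether the lines came from separate mice.

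HOX genes encode homeodomain transcription factors that give cells their position along the head-to-tail axis. They lie in clusters that arose by duplication, so that genes with the same number in different clusters are paralogs, and their order in a cluster follows the order of their expression in the embryo, from low-numbered anterior genes to high-numbered posterior genes. HOX proteins bind DNA with TALE cofactors of the PBX and MEIS families, Polycomb proteins keep the clusters silent, proteins of the MLL and trithorax group keep them active, and retinoic acid opens them from the anterior end. The pancreas is a derivative of the foregut, whereas Hoxa13 and the other genes of paralog group 13 are known for hindgut, limb and urogenital development.

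On GRCm38, the build with the coordinates of mm10, the HoxA genes lie on chromosome 6, and HoxB spans chr11:96194316-96368256, HoxC chr15:102921103-103036852 and HoxD chr2:74668310-74765142. The neighbouring Hoxa9, Hoxa10, Hoxa11 and Hoxa13 carried most of the HOX signal of line #3, so their start regions are printed here, with that of Hoxa5 for comparison, a gene of the same cluster with low values. Each window holds 250 bases before and 50 bases after the RefSeq start, on the minus strand of GRCm38.p6, with every CG dinucleotide in capitals.
Hoxa13, chr6:52260831-52261130: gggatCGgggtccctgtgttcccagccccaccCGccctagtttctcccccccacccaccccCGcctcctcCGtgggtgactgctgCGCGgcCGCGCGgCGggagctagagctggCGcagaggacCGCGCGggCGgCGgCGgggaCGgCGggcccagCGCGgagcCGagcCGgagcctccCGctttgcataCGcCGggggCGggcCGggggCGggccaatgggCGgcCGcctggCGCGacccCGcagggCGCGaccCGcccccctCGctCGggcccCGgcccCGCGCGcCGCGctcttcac
Hoxa11, chr6:52245761-52246060: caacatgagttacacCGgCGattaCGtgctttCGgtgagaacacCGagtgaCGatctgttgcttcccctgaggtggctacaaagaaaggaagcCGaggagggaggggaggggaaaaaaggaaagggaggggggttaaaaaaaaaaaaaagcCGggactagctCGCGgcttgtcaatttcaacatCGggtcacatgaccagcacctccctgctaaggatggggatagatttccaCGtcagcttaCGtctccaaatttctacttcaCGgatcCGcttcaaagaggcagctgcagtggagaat
Hoxa10, chr6:52240805-52241104: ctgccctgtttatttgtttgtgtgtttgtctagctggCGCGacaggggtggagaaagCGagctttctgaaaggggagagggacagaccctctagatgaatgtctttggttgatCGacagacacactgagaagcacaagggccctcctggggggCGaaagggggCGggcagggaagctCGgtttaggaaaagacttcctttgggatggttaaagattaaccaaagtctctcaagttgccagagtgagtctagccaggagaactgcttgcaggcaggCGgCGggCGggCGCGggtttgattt
Hoxa9, chr6:52227321-52227620: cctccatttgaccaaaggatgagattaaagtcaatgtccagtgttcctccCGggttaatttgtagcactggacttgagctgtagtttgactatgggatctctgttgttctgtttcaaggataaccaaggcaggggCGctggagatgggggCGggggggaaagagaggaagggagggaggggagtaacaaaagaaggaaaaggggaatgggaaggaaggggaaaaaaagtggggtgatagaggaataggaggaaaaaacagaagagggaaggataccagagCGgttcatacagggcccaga
Hoxa5, chr6:52204538-52204837: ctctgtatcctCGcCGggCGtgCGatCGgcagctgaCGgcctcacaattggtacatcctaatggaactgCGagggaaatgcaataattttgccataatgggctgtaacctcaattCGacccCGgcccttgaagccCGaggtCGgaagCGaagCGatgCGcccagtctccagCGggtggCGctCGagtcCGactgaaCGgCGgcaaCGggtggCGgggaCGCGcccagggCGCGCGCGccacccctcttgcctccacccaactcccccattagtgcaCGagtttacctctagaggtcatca
The Hoxa13 window held 45 CG dinucleotides, the Hoxa5 window 29, the Hoxa11 window 15, the Hoxa10 window 12 and the Hoxa9 window 4. A second RefSeq start of Hoxa10 (chr6:52234890-52235189), not printed, held 21. RefSeq windows were found for 20 of the 37 members, and with those of Hoxd1 and Hoxd12 the 24 windows of HOX genes had a median of 14.5 CG dinucleotides, against 7 over all 32851 windows of that length. The letters TTTAT, or ATAAA on the opposite strand, a core that CDX proteins bind, stood in 9 of the 24 HOX windows (37.5%) and in 13143 of all windows (40.0%). Without Hoxd1 and Hoxd12 the share was 9 of 22 windows (40.9%). Of the 5 windows printed, that of Hoxa10 held these letters. These counts describe sequence, not binding.

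Libraries held 30680091 to 36385719 normalized counts in all. The lowest values of a library stepped by the value of about 1 read, which was 0.775 to 1.24 normalized counts, so that a floor of 3 reads came to 2.32 to 3.73 normalized counts and the depth to roughly 29300000 to 46000000 reads. An exact 0 is given here as listed at 0, since genes that such cells are known to use, Epcam among them, also stood at 0. MEK inhibition showed in its feedback and target genes: Dusp6, Spry4, Etv4 and Etv5 were all lower with trametinib in limma, and Dusp6 fell by 2.51 on the log2 scale (adjusted p = 0.00012). The ductal markers Krt19, Krt8, Krt18 and Cdh1 each stood at 17761 normalized counts or more in every library, whereas Epcam was listed at 0 in lines #1, #5 and #10 and stood at 10.4 and 3.75 in line #3. Of the 4 acinar markers measured, Cpa1 was listed at 0 throughout, whereas Cela1 stood at 15.6 to 247 normalized counts. Trp53 stood at 196 to 355 normalized counts, which checks nothing, since a value per gene does not show which exons were read.

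HOX genes were low in 3 of the lines and high in line #3. With DMSO, the 37 genes summed to 72.1 normalized counts in line #1, 1668 in line #3, 193 in line #5 and 86.2 in line #10, and with trametinib to 84.7, 1474, 93.9 and 110.3. Line #3 was thus the highest under both treatments, and neither of its libraries overlapped with the other lines. It was singled out after these values were seen. In bulk samples, more cells that express a gene and more RNA per cell cannot be told apart.

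**Figure D1:**
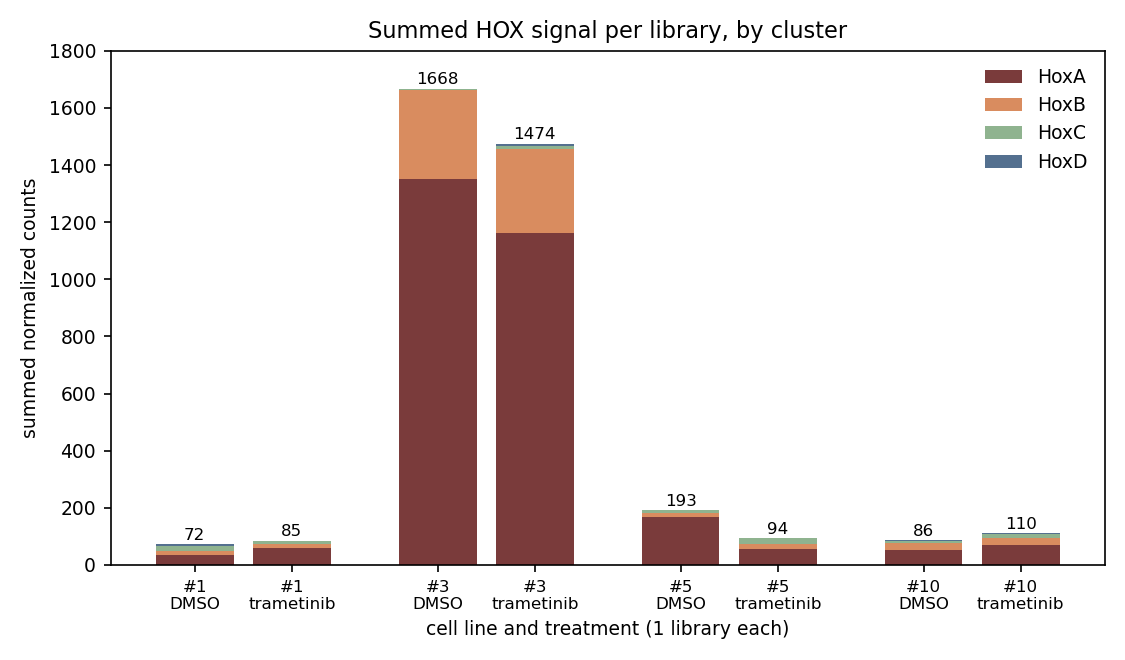
Stacked bars give the summed normalized counts of the 37 HOX genes in each of the 8 libraries, colored by cluster, for the 4 lines with DMSO and trametinib (1 library per bar, no error bars). Line #3 reaches 1668 and 1474, and every other library stays at 193 or lower.

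HoxA genes made up 81.0% of this sum in line #3 with DMSO and 78.8% with trametinib, and HoxB genes 18.7% with DMSO. The 4 genes from Hoxa9 to Hoxa13 alone held 78.2% and 75.7%. In line #5 with DMSO they held 79.9%, and in the other 5 libraries 33.6% to 45.6%. The HoxC sum ranged from 6.15 to 22.0 normalized counts over the 8 libraries and the HoxD sum from 0 to 7.78, and line #3 with DMSO had the lowest HoxC sum, at 6.15. Above the floor of 3 reads in both libraries of a line were 8 members in line #1, 16 in line #3, 5 in line #5 and 7 in line #10. Hoxa10 and Hoxa13 were above it in both libraries of all 4 lines.

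Of the 37 genes, 15 never rose above the floor in any library. These were Hoxa2, Hoxa4, Hoxb2, Hoxc5, Hoxc8, Hoxc10, Hoxc11, Hoxc12, Hoxc13, Hoxd3, Hoxd8, Hoxd9, Hoxd10, Hoxd11 and Hoxd13, and Hoxb2, Hoxc12 and Hoxd13 were listed at 0 in all 8 libraries. A listed 0 need not be a count of 0 reads, as said above for Epcam, and for the other 12 genes no value above the floor was detectable at this depth.

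**Figure D2:**
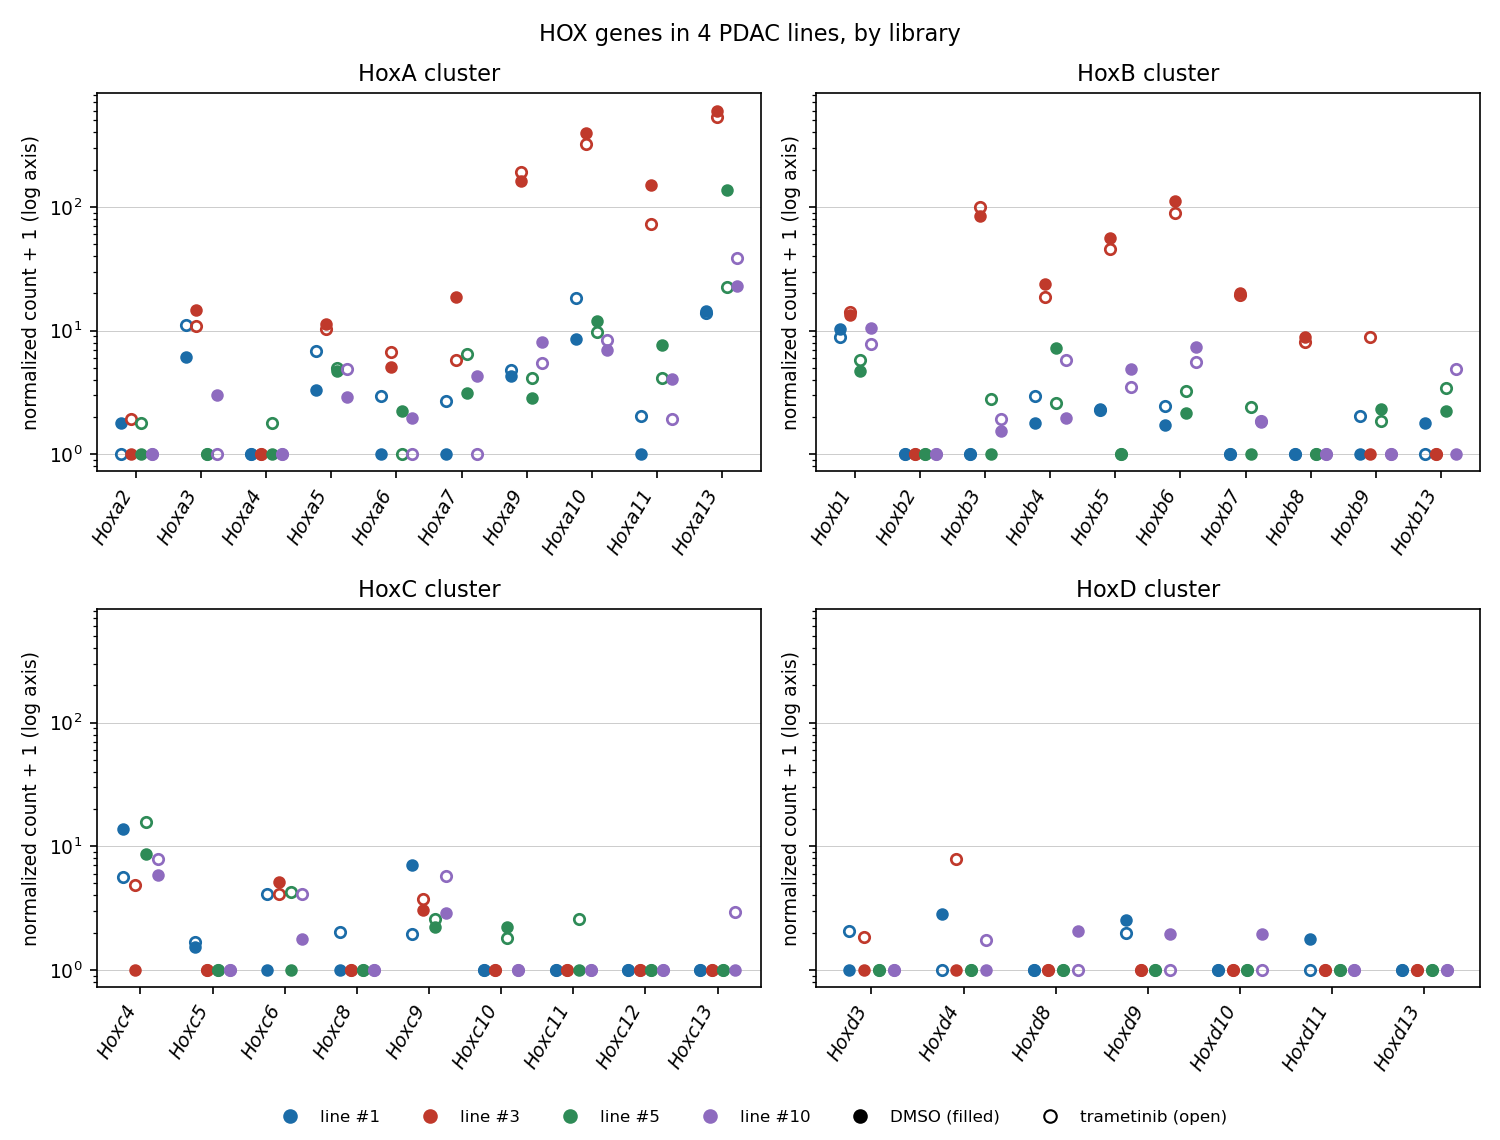
Points give the normalized count plus 1 (log axis) of HOX genes in every library, in 4 panels by cluster and in order of paralog number, with color for the line and filled or open symbols for DMSO or trametinib. Line #3 stands apart from Hoxa9 to Hoxa13 and at Hoxb3, Hoxb5 and Hoxb6, while the HoxC and HoxD genes stay at 14.7 normalized counts or lower in all libraries.

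The comparison between lines asked whether HOX levels differed beyond what remained after the means of line and treatment, with limma's F-test on log2(value + 1) and Benjamini-Hochberg adjustment over all genes. Only the 7 members with a mean of at least 10 normalized counts entered this test, and all but Hoxa13 passed that filter through line #3 alone, so that they had to differ and their number supports nothing. These 6 are therefore described below by their values alone, with no test between lines. Over all genes tested with the filter, 27.6% of 15888 had an adjusted p under 0.05 between lines. Without a filter, 34 members could be tested and 10 were called, against 9.21% of 31080 genes. The 10 include Hoxa3 (adjusted p = 0.047 in limma), Hoxb7 (0.019), Hoxb8 (0.015) and the 6 above, so that this count supports nothing either. In lines #1, #5 and #10 alone without a filter, an alternative added after seeing the data, limma called 0 of 33 members between lines, with 2 at an unadjusted p under 0.05, against 9.95% of 30206 genes. Above the floor in both libraries were only 8, 5 and 7 members in these lines, so that this 0 does not show that the lines were alike.

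Among the posterior HoxA genes, Hoxa13 (chr6:52257694-52260880) was the highest. It encodes a factor of hindgut and distal limb development. With DMSO it stood at 13.4, 598, 135 and 22.0 normalized counts in lines #1, #3, #5 and #10, and with trametinib at 12.8, 532, 21.7 and 37.5. Line #3 was 7.22-fold above line #5, the next by the mean of both libraries, and line #5 with DMSO stood between line #3 and the rest. The lines differed at an adjusted p of 0.013 in limma, and of 0.19 without line #3, where Hoxa13 was the one member that still passed the filter.

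Hoxa10 (chr6:52231197-52240854), a gene of the urogenital tract and of blood progenitors, stood at 7.62, 396, 10.9 and 5.92 normalized counts in lines #1, #3, #5 and #10 with DMSO and at 17.4, 322, 8.78 and 7.35 with trametinib. Line #3 was 28.7-fold above the next line, and the other 6 libraries lay between 5.92 and 17.4. Hoxa9 (chr6:52223100-52231089), a gene active in early blood progenitors, stood at 3.27, 162, 1.83 and 7.14 with DMSO and at 3.80, 190.5, 3.10 and 4.43 with trametinib. The step to the next line was 30.4-fold, and the other lines lay close to the floor. The microRNA gene Mir196b overlaps the exons of Hoxa9 on the same strand, so that reads of its primary transcript cannot be told apart from those of Hoxa9.

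Hoxa11 (chr6:52242106-52245810), a gene of limb and uterus development, was listed at 0 in line #1 and stood at 149, 6.60 and 3.06 normalized counts in lines #3, #5 and #10 with DMSO. With trametinib it stood at 1.04, 71.7, 3.10 and 0.931 in lines #1, #3, #5 and #10. Line #3 was again alone at the top, 22.7-fold above line #5. Its antisense partner Hoxa11os overlaps its exons on the other strand. The library kit keeps strand, but the strand setting of the quantification is not given in the sources used here, so that the pair may share reads.

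Of the HoxB genes, Hoxb6 (chr11:96292476-96301569) had the highest mean. It had DMSO values of 0.730, 110.4, 1.17 and 6.32 normalized counts in lines #1, #3, #5 and #10 and stood at 1.44, 88.3, 2.26 and 4.53 with trametinib, so that line #3 was 18.3-fold above line #10. Hoxb3 (chr11:96323326-96347930), a hindbrain gene, stood at 83.6 and 98.1 in line #3 with DMSO and trametinib and at 1.78 or lower in each other library, all of them under the floor. For Hoxb5 (chr11:96303336-96306121), a gene of the enteric nervous system and the foregut mesenchyme, the values of line #3 were 54.9 and 44.4, the highest value of another line was 3.92, and line #5 was listed at 0. Line #3 thus did not overlap with any other line in these 3 genes. Hoxb3os and Hoxb5os overlap Hoxb3 and Hoxb5 on the other strand and stood at 2.86 or lower.

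Other HoxB genes of lower level were likewise highest in line #3. Hoxb4 stood at 22.9 and 17.8 normalized counts in line #3 and at 6.21 or lower elsewhere, Hoxb7 at 19.0 and 18.3 against values under the floor elsewhere, and Hoxb8 at 7.82 and 7.05 while listed at 0 in the other lines. Hoxb1, the most anterior gene of the cluster, was above the floor in both libraries of lines #1, #3 and #10, and its values ran from 3.72 to 13.1 normalized counts. Unlike Hoxb3 to Hoxb8, Hoxb9 was listed at 0 in line #3 with DMSO and stood at 7.94 with trametinib, and Hoxb13 was listed at 0 in both. Hoxa3, Hoxa5, Hoxa6 and Hoxa7 were also of low level. Hoxa5 stood at 10.4 and 9.38 in line #3 and at 5.86 or lower elsewhere, and Hoxa6 at 4.11 and 5.67 against 1.94 or lower. In line #3 Hoxa3 stood at 13.7 and 9.79 and Hoxa7 at 17.8 and 4.81, both the highest of the lines with DMSO. With trametinib Hoxa3 reached 10.03 in line #1 and Hoxa7 reached 5.49 in line #5.

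By paralog group, line #3 held the highest sum in groups 3 to 11 and in group 13 under both treatments. Group 12 has Hoxc12 as its one measured member and was listed at 0. The highest HoxC value belonged to Hoxc4, which with DMSO stood at 12.7 in line #1, was listed at 0 in line #3, and stood at 7.61 and 4.90 in lines #5 and #10. With trametinib it stood at 4.64, 3.83, 14.7 and 6.88. These values overlapped between treatments, and its fold change without a filter was 0.57 on the log2 scale (95% interval -0.90 to 2.04, adjusted p = 0.58 in limma). Hoxd4, the highest HoxD gene, stood at 1.84 in line #1 with DMSO, at 6.94 in line #3 and 0.760 in line #10 with trametinib, and was listed at 0 in the other 5 libraries (log2 fold change without a filter 0.58, 95% interval -1.04 to 2.19, adjusted p = 0.61 in limma).

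Levels of different genes were compared as normalized counts per kb of exon. In line #3 with DMSO, Hoxa13 stood at 242 per kb, Hoxa10 at 121, Hoxa11 at 65.1, Hoxb6 at 56.2, Hoxa9 at 29.0, Hoxb5 at 19.7 and Hoxb3 at 19.7. Over the 4 DMSO libraries, the mean level per kb was 77.7 ± 112 (SD, n = 4) for Hoxa13, 32.1 ± 59.3 for Hoxa10, 15.1 ± 27.4 for Hoxb6 and 7.80 ± 14.1 for Hoxa9. These SDs exceed their means, with 1 line high. Paired by line, Hoxa13 was above Hoxa10 and Hoxa10 above Hoxa11 in 4 of 4 DMSO libraries, whereas Hoxa11 was above Hoxb6 in 2 of 4 and each further neighbour above the next in 3 of 4. An exact two-sided paired permutation test over 4 lines cannot go below p = 0.125, so that no pair could pass 0.05. With the longest transcript in place of all exons, the mean of Hoxa9 was 13.5 per kb.

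**Figure D3:**
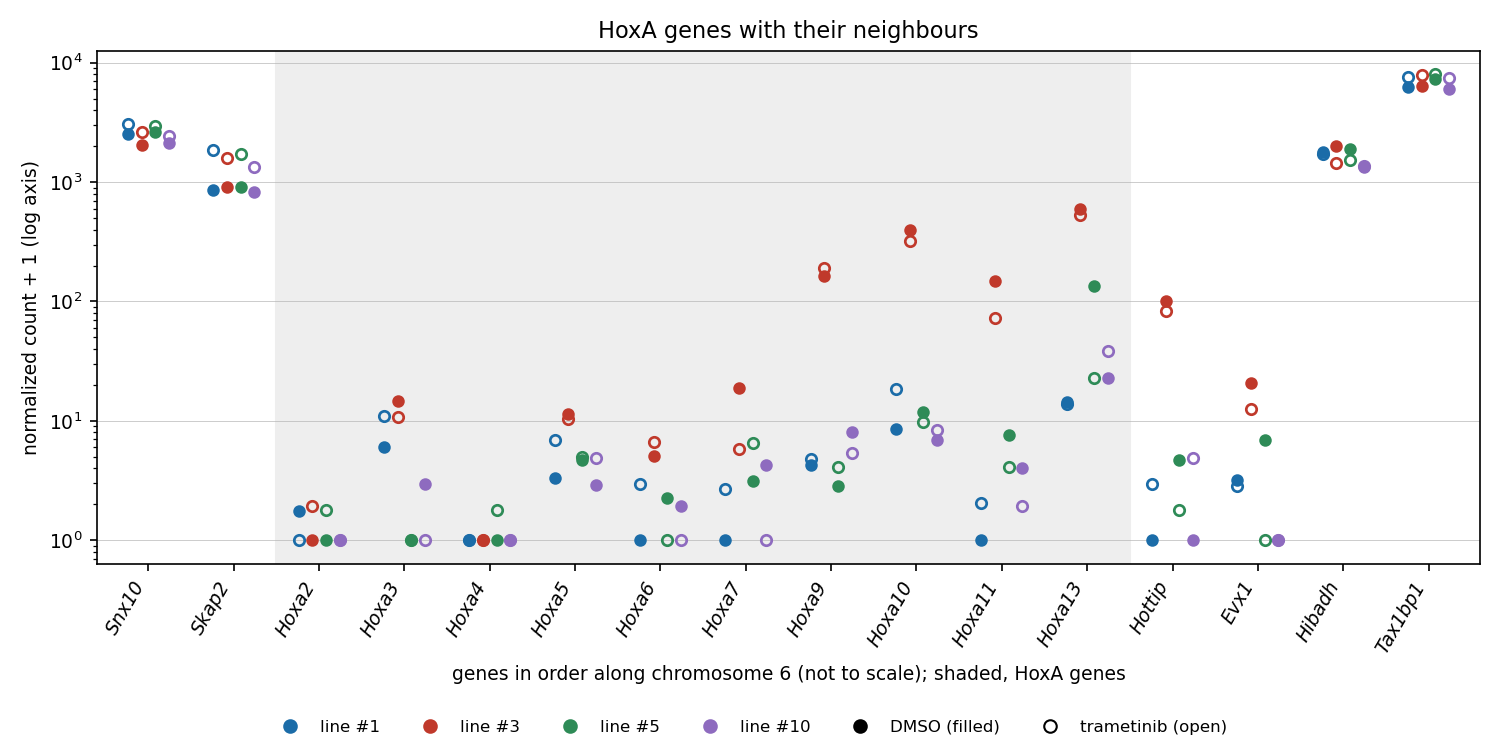
Points give the normalized count plus 1 (log axis) of HoxA genes (shaded) and of genes on either side, in their order on chromosome 6 but not to scale, with color for the line and filled or open symbols for DMSO or trametinib. Line #3 is high from Hoxa9 to Hottip and Evx1, whereas Skap2, Hibadh and Tax1bp1 are of like height in all lines.

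Noncoding transcripts beside the posterior HoxA genes were high in the same line. Hottip, a long noncoding RNA that starts beyond Hoxa13 (chr6:52262775-52267603) and is known to act on the posterior HoxA genes with MLL proteins, was listed at 0 in lines #1 and #10 and stood at 100.5 and 3.74 normalized counts in lines #3 and #5 with DMSO. With trametinib it stood at 1.96, 81.4, 0.803 and 3.86 in lines #1, #3, #5 and #10. Hoxa11os stood at 97.2 and 63.7 in line #3 and at 6.06 or lower elsewhere. Hottip and Hoxa11os passed the filter on the mean through line #3 alone, so that no test between lines is given for them. Evx1, a homeobox gene next to the cluster, stood at 19.8 and 11.6 in line #3 and at 5.91 or lower elsewhere.

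Few of the coding genes around the clusters were called between lines. Of the 24 nearest protein-coding genes, 3 on each side of each cluster, 19 passed the filter, and 2 of these, Cbx3 and Nfe2l2, were called between lines in limma, against the 27.6% of all genes given above. Skap2, on the anterior side of HoxA, had DMSO values of 858, 904, 913 and 821 normalized counts in lines #1, #3, #5 and #10 (adjusted p between lines = 0.37 in limma). Cbx3, which was called, lies on the same side of HoxA as Skap2 (adjusted p between lines = 0.011 in limma). On the other side, Hibadh had an adjusted p between lines of 0.20 in limma. Beside HoxB, Snx11 and Cbx1 had adjusted p values of 0.19 and 0.21.

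The comparison of trametinib with DMSO asked whether HOX genes changed while MEK was blocked. No HOX gene was called. Of the 7 members tested, limma called 0 higher and 0 lower, and 0 had an unadjusted p under 0.05. Of the 15888 genes tested, 53.0% were called in 1 direction or the other. All members tested but Hoxa13 had passed the filter through line #3 alone. In the other lines these members stood at 17.4 normalized counts or lower, and many of their values lay near or under the floor. The 0 calls therefore do not show that HOX genes responded less than other genes. Without a filter limma called 0 of 34 members, with 1 member, Hoxc6, at an unadjusted p under 0.05, against 25.2% of 31080 genes. The same limit holds there. The 95% interval of each difference of a HOX gene is given with it, since a call that misses the threshold does not show that values were alike.

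**Figure D4:**
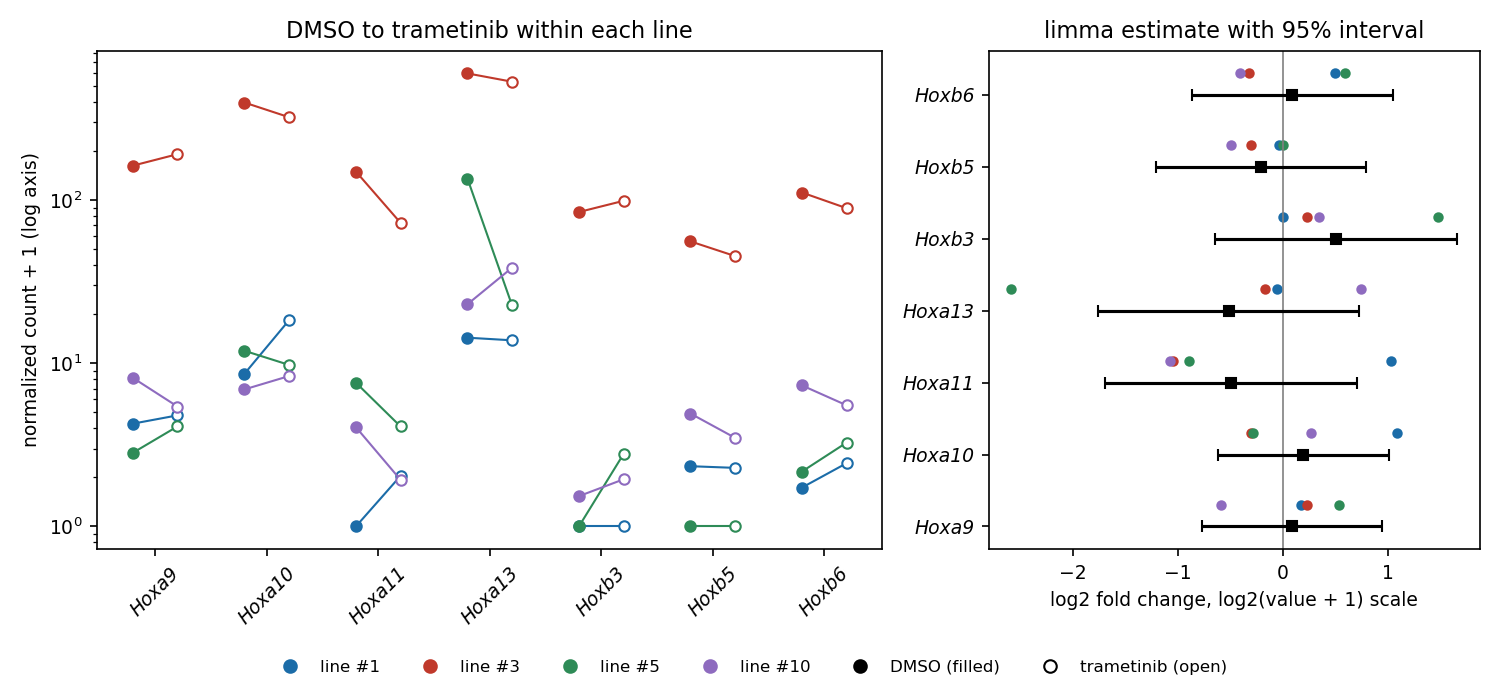
At left, lines join the normalized count plus 1 (log axis) with DMSO (filled) and trametinib (open) of the same cell line for the 7 members tested; at right, squares give the limma log2 fold change with its 95% interval and small points the log2 fold change of each line. All 7 intervals include 0, and the point of line #5 for Hoxa13 lies at -2.58.

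Hoxa10 had a log2 fold change of 0.19 (95% interval -0.62 to 1.01, adjusted p = 0.65 in limma), with 2 of 4 lines higher. For Hoxa9 it was 0.09 (95% interval -0.77 to 0.95, adjusted p = 0.85 in limma), with 3 of 4 lines higher. Hoxa11 was lower in 3 of 4 lines, line #3 among them, with a log2 fold change of -0.49 (95% interval -1.70 to 0.71, adjusted p = 0.44 in limma). The estimate of Hoxa11 was -1.002 without line #1. All 3 intervals held changes of either sign.

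The log2 fold change of Hoxa13 was -0.52 (standard error 0.52, 95% interval -1.76 to 0.73, adjusted p = 0.43 in limma). Its values by line were -0.05, -0.17, -2.58 and 0.74 in lines #1, #3, #5 and #10. Line #5 decided the sign, since the estimate was 0.17 without it. Whether the response of line #5 differed from that of the other lines could not be tested with 1 pair of libraries a line.

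In the HoxB cluster, Hoxb3 had a log2 fold change of 0.51 (95% interval -0.64 to 1.66, adjusted p = 0.40 in limma), Hoxb5 of -0.21 (-1.21 to 0.80, adjusted p = 0.70) and Hoxb6 of 0.09 (standard error 0.40, -0.87 to 1.05, adjusted p = 0.86). Without line #5 the estimate of Hoxb3 was 0.19. The values of Hoxb3 and Hoxb5 were under or near the floor in lines #1, #5 and #10 and those of Hoxb6 under it in lines #1 and #5, and Hoxb3 had its largest log2 fold change, 1.47, in line #5, from a listed 0 to 1.78 normalized counts. Within line #3, where all 3 genes were well measured, the log2 fold changes were 0.23, -0.30 and -0.32. The median log2 fold change of the 4 HoxA members tested was 0.60, -0.23, -0.59 and -0.16 in lines #1, #3, #5 and #10. The value of line #1 rests in part on Hoxa11, which was under the floor there in both libraries. The median of the 3 HoxB members was 0, -0.30, 0.59 and -0.40, of which those of lines #1 and #5 rest on values under the floor. Over all genes tested the median was 0.07.

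Of the noncoding RNAs of the HOX clusters, 8 could be tested without a filter, and 2 of them, both of HoxA and both at low values, were higher with trametinib in limma while none were lower, a share like the 25.2% of all genes called without a filter. Hotairm1, a noncoding RNA of the anterior HoxA cluster that is known from retinoic acid-treated cells, stood at 0.255 normalized counts in line #1 and 4.80 in line #10 with DMSO and was listed at 0 in lines #3 and #5. With trametinib it stood at 6.28, 5.83, 19.4 and 16.6 in lines #1, #3, #5 and #10, so that the groups did not overlap (log2 fold change without a filter 2.81, 95% interval 1.53 to 4.10, adjusted p = 0.0090 in limma). Hoxaas2 was listed at 0 in all 4 DMSO libraries and in line #1 with trametinib, and stood at 3.87, 6.89 and 5.16 in lines #3, #5 and #10 (adjusted p = 0.038 without a filter in limma). The strand setting bears on Hotairm1 and Hoxaas2 as it does on Hoxa11os.

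Hoxc6 was listed at 0 in lines #1 and #5 with DMSO and stood at 4.10 and 0.772 in lines #3 and #10. With trametinib all 4 libraries lay between 3.09 and 3.23 (log2 fold change without a filter 1.26, 95% interval 0.03 to 2.48, adjusted p = 0.13 in limma). In lines #1, #5 and #10 alone without a filter it was the 1 member of 33 called higher (log2 fold change 1.78, 95% interval 0.62 to 2.94, adjusted p = 0.038 in limma), against 25.0% of 30206 genes called in either direction, on values of about 3 reads.

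Genes that act with HOX proteins or on HOX clusters were taken from lists chosen with earlier results of these data known, and were not tested as lists against other genes. Of 9 TALE cofactors, 8 were tested, and 4 were called higher and 3 lower in limma, against 53.0% of all genes called in either direction, with a median log2 fold change of 0.44 beside 0.07 over all genes. Pbx4 rose by 1.99 on the log2 scale, Meis3 by 1.77 and Meis1 by 1.15, whereas Pbx3 fell by 0.66, Meis2 by 0.50 and Pknox1 by 0.38 (adjusted p of 0.00047 for Pbx4 to 0.022 for Pknox1 in limma). Meis1 stood at 103, 96.1, 49.7 and 187 normalized counts with DMSO and at 236, 313, 147 and 212 with trametinib in lines #1, #3, #5 and #10. It was higher in 4 of 4 lines, and the groups overlapped through line #10 with DMSO. Of the 8 activators of the MLL and trithorax group, Kdm6b, a demethylase of the Polycomb mark, rose by 0.61 and Psip1, which tethers MLL to chromatin, fell by 0.98 (adjusted p = 0.0087 and 0.00045 in limma), while 6, Kmt2a among them, were not called, again beside 53.0% called over all genes.

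Of 20 Polycomb genes, 5 were higher and 8 lower with trametinib in limma, near the 53.0% of all genes called, with a median log2 fold change of -0.12. Suz12 and Eed, core subunits of the complex that methylates histone H3, fell by 0.91 and 0.89 on the log2 scale, its accessory subunit Phf19 fell by 1.74, and Rbbp7 and Phc2 fell by 0.93 and 0.95 (adjusted p of 0.00081 for Phc2 to 0.0013 for Suz12 in limma). Between lines, 7 of the 20 were called, near the 27.6% of all genes, and among them Cbx7 had DMSO values of 939, 1673, 247 and 298 normalized counts in lines #1, #3, #5 and #10 and stood at 1236, 1311, 195 and 214 with trametinib (adjusted p between lines = 0.0016 in limma). Line #3 was the highest in Cbx7 under both treatments. Its part in the HOX values was not tested.

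In the retinoic acid pathway, 12 of 17 genes were tested, and 7 were higher and 3 lower with trametinib in limma, against 53.0% of all genes called, with a median log2 fold change of 0.82. The retinol transporter Stra6 rose by 2.93 on the log2 scale, the receptor Rarb by 2.90, the synthesis enzyme Aldh1a1 by 2.49 and the retinal reductase Dhrs3 by 2.47, while Aldh1a3, which also makes retinoic acid, fell by 3.34 (adjusted p of 0.00017 for Aldh1a3 to 0.0014 for Stra6 in limma). Rarb stood at 8.69, 31.1, 8.06 and 2.63 normalized counts with DMSO and at 57.9, 173, 110.7 and 27.0 with trametinib in lines #1, #3, #5 and #10. Line #3 was highest in both groups (adjusted p between lines = 0.020 in limma), and the treatments overlapped because of line #3 with DMSO.

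CDX and ParaHox genes are relatives of HOX genes that specify gut regions. Cdx2, an intestinal factor that acts on posterior HOX genes in the embryo, had DMSO values of 758, 3229, 1619 and 1419 normalized counts in lines #1, #3, #5 and #10 and stood at 210.3, 1229, 342 and 416 with trametinib. Line #3 was the highest under both treatments (adjusted p between lines = 0.0039 in limma), and every line was lower with trametinib (log2 fold change -1.81, adjusted p = 0.00033 in limma). Pdx1, a factor of pancreas identity, fell by 1.27 on the log2 scale in limma. Cdx1 stood at 1.87 or lower and Cdx4 was listed at 0.

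With DMSO, line #3 was highest in none of the summed markers of other cell types. With trametinib it was highest in the immune and endothelial sums. In line #3 with DMSO, the sum of 9 fibroblast markers was 95.8 normalized counts, the lowest of the DMSO libraries (95.8 to 369), and that of 5 immune markers was 154, also the lowest (154 to 224). Lum, Col1a2 and Pdgfrb were listed at 0 in it. The sum of 4 endothelial markers was 35.9 in that library, within the range of 30.9 to 54.6. With trametinib, line #3 had a fibroblast sum of 1256, mostly Col1a1 (range 440 to 1259.8), an immune sum of 266 (range 159 to 266) and an endothelial sum of 831, mostly Tek (range 62.7 to 831). The sum of the 4 acinar markers was 70.1 in line #3 with DMSO (range 31.0 to 249) and 45.2 with trametinib (range 18.5 to 126). Mesenchymal markers summed to 63532 in line #3 with DMSO, the lowest of the DMSO libraries, and with trametinib line #3 was above lines #1 and #10 and below line #5. This sum was mostly Fn1 and Vim, with means of 60213 and 59644 over all libraries, and says little on the other markers. Between lines, 3 of the 6 mesenchymal markers were called in limma, against 27.6% of all genes. These were Twist1 (adjusted p = 0.00025), Vim (0.038) and Zeb2 (0.017). The part of these markers in the HOX values was not tested.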

How the data were processed

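RNA-seq values of 8 libraries were used, 1 per cell line and treatment. The authors deposited a table of normalized counts per gene, a signal scaled between libraries and not read counts. The submitters' processing notes name CASAVA 2.17, Salmon 0.12, DESeq2 1.18 and mm10, without their roles. Of values under 20 steps of 1 read, 56.7% to 68.0% were whole multiples of that step (within 0.05), so reads were not recovered. Positions and exon lengths come from the GENCODE M21 annotation of GRCm38, in which 37 of 37 members were found by symbol, and promoter windows those of RefSeq on GRCm38.p6.

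Values were transformed as log2(value + 1), a scale that understates changes of low genes, and the 15888 genes averaging 10 or more were tested with limma 3.58.1 in R 4.3.3 (lmFit, eBayes with trend), with line and treatment as terms and Benjamini-Hochberg adjustment over all genes at 0.05. Both libraries of a number come from the same line, and their deviations from the treatment means correlated across genes at 0.63 to 0.72. The fit was tested on simulated data with normal noise of the spread that the fit itself had found. It recovered 156 of 194 planted changes with the right sign and called 7 unchanged genes. Such noise is not that of counts near the floor, so that the simulation says nothing on HOX genes of low level. Tables and plots were made with Python 3.11.15, pandas 2.3.3, numpy 2.4.6 and matplotlib 3.10.9.

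Some genes, 1 HOX gene among them, and part of the genotype are not reported here by name, though that HOX gene is in the sums and counts. The members and the gene lists were chosen with earlier results of these data known. Library values are given for the highest member of each cluster and for tested members whose line means differed by over 16-fold, and other members by ranges or after their values were seen. At most 5 called genes of a list are named by adjusted p, and any further gene was picked once its values were known. Alternatives were pseudocounts of 0.1 and 5, equal totals, median centring, quantile normalization, no filter, a filter at 50, robust estimation, no block, the longest transcript, leaving out each line and, added after seeing the data, no filter with lines #1, #5 and #10 alone.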

Additional observations from a re-analysis of the deposited data

Results flagged for a closer look

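Of 57 groups of 4 values tested with Dixon's criterion for a single value far from the rest, 29 held such a value, and in 24 of them it was the library or fold change of line #3. Chance marks about 1 in 20 groups that were not selected. These groups were taken largely from genes with large differences between lines or with a mean raised by line #3, and they share libraries and genes, so that their number and the part of line #3 in it support nothing.

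In the posterior HoxA genes, the value of line #3 stood far above the other 3 lines. This was so for Hoxa9 at 161.9 (DMSO) and 190.5 (trametinib) normalized counts, for Hoxa10 at 395.9 and 321.7, and for Hoxa11 at 148.8 and 71.66. For Hoxa13 it was so with trametinib, at 531.6, but not with DMSO, where line #5 stood at 135.

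The same line stood apart in HoxB. Its values were 83.62 with DMSO and 98.09 with trametinib for Hoxb3, 54.89 and 44.44 for Hoxb5, 110.4 and 88.32 for Hoxb6, 18.97 and 18.28 for Hoxb7 and 7.821 and 7.049 for Hoxb8. Beside HoxA, it stood apart in Hottip at 100.5 and 81.44, in Hoxa11os at 97.2 and 63.74, and in Evx1 with trametinib at 11.59.

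Lone values near the floor were those of Hoxd4, at 1.84 in line #1 with DMSO and 6.944 in line #3 with trametinib, and of Hotairm1, at 4.799 in line #10 with DMSO. Of the log2 fold changes by line, 1 stood apart in Hoxa11 at 1.03 in line #1 and in Hoxb7 at 1.27 in line #5. Both rest on values under the floor. In Hoxb8 it was that of line #3, at -0.13, which had to stand apart, since the other lines were listed at 0 in both libraries. In Cbx7 it was that of line #1, at 0.40. With 1 pair of libraries a line, differences in response between lines could not be tested.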

How the results depend on the processing

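Calls for trametinib did not change among the 7 members tested: 0 of 87 estimates under the alternatives were called, and their lowest adjusted p was 0.10 in limma. The limit given above for members of low level holds for these estimates too. With no filter and lines #1, #5 and #10 alone, 1 member, Hoxc6, was called higher. Without the cell line as a replicate block, 2205 genes were higher and 2347 lower, against 4341 and 4075 with it, and 0 of 7 members were called. Equal totals moved the median of all genes from 0.07 to 0.20 and gave 5333 higher and 3285 lower genes, and median centring gave 3848 and 4492. Under the 3 other scalings 0 called genes of the TALE, MLL, Polycomb, retinoic acid and CDX lists turned sign.

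Directions turned in 4 members whose intervals held 0. Quantile normalization gave log2 fold changes of -0.16 for Hoxa10, -0.47 for Hoxa9 and -0.45 for Hoxb6, and a pseudocount of 5 gave -0.038 for Hoxb6. Leaving out each line gave ranges of -0.10 to 0.35 for Hoxa10, -0.061 to 0.31 for Hoxa9, -0.94 to 0.17 for Hoxa13, -0.076 to 0.26 for Hoxb6, -1.002 to -0.30 for Hoxa11, 0.19 to 0.68 for Hoxb3 and -0.28 to -0.11 for Hoxb5. Other alternatives gave -1.09 (quantile normalization) to -0.056 (pseudocount of 0.1) for Hoxa11, 0.15 to 1.296 (the same 2 settings) for Hoxb3, and -0.60 (quantile normalization) to -0.14 (pseudocount of 5) for Hoxb5. The mean of the HoxA medians, -0.10 over the 4 lines, ran from -0.63 (without line #3, 1 member left) to 0.070 with a line left out, and from -0.51 (quantile normalization) to 0.20 (no filter) and 0.31 (no filter, lines #1, #5 and #10 alone) otherwise. The cause of these moves was not tested.

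Between lines, 4391 genes were called, 2862 without a filter, and 2028 (without line #1) to 4558 (without line #3) with a line left out. Counts of members called with line #3 in the fit support nothing, as said above. Without line #3, 0 of 1 was called with the filter, and 0 of 33 with no filter and lines #1, #5 and #10 alone. Few members were above the floor in both libraries of these lines, so that the 0 of 33 does not show that the lines were alike. The floor of 3 reads was never passed by 15 members.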
